A study of Mus musculus with 20 samples.

Results

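Immediate early genes were followed in the trachea of wild-type and Myd88 KO mice with and without an injury. The set held 10 of the 27962 gene names on the array: Fos, Fosb, Fosl1, Fosl2, Jun, Junb, Egr1, Egr2, Atf3 and Ier3, the last a short survival protein that is induced with the others but is no transcription factor. Every non-control probe that carried one of these names was taken, which gave 12 probes out of 41174. A probe was tested if 10 or more of the 20 arrays read it well above background, which kept 26063 probes and all 12 members. Fosl2 and Junb had 2 probes each, the probes of Fos, Jun and Egr2 were each printed 10 times on an array, and the remaining genes had a single spot. By the positions printed in the files, for which no genome build was stated, the Junb probes lay at chr8:83563097-83563156 and chr8:83563059-83563118. They overlap, so they read nearly the same stretch of the transcript. The Fosl2 probes lay further apart, at chr5:31189767-31189826 and chr5:31185231-31185290.

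The immediate early transcription factors are genes that cells switch on within minutes of a growth signal, a wound or an inflammatory stimulus, from pre-existing regulators and without new protein synthesis. Fos and Jun proteins pair through leucine zippers to form AP-1, Egr proteins bind GC-rich sites through zinc fingers, and Atf3 is a stress-induced zipper protein of the ATF/CREB family. Their transcripts are short-lived and many are damped by feedback soon after they appear. Signalling through Myd88, the adaptor of most Toll-like receptors and of the interleukin-1 receptor, is one of several inputs that reach them by way of MAP kinases and NF-κB. In a wounded airway epithelium they are known as part of the first response, before migration and proliferation begin.

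RNA of whole trachea was hybridised to one-colour arrays, with 5 mice in each of 4 groups. WT-control and WT-injury were C57/Bl6 wild-type mice, and KO-control and KO-injury were Myd88 KO mice, which lack the adaptor in every cell. All were 4 months old by the labels. The injured mice had received 2% polidocanol, a detergent that strips the airway lining, into the trachea 3 days before collection, and the control mice had not. The knockouts had been backcrossed to the wild-type strain but were bred among themselves, while the wild-type mice came from a separate colony, so genotype and colony cannot be told apart. In whole tissue, fewer cells of a type and less RNA per cell cannot be told apart either. Levels are given as log2 of the probe's intensity over the 75th percentile of its own array, so that 0 is the level of a probe at that percentile. Levels of different probes are not comparable with each other.

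The tissue label and the injury label were set against marker genes first. Secretory, ciliated and basal epithelial markers were measured on the arrays, with 5 of 5 genes of each list tested, and so were markers of skeletal muscle (7 of 7) and thyroid (3 of 4), tissues that adjoin the trachea. Arrays of 1 group correlated at 0.925 to 0.990 over the tested probes. The Myd88 probe stood at 1.94 to 2.28 in WT-control and at 1.60 to 2.04 in KO-control, which overlap, and at 2.36 to 2.80 in WT-injury against 1.54 to 2.09 in KO-injury, which do not. Whether the probe reads a stretch that the deletion removed is not given in the sources used here, so it does not check the genotype labels.

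The KO-injury arrays were not alike. Scgb3a2, a secretoglobin of club cells, stood at 8.59 to 9.43 in KO-control and at 2.59 to 4.16 in WT-injury, but at 9.10 in KO-injury replicate 5 and at 7.94 in KO-injury replicate 1. Timp1, an inhibitor of matrix metalloproteinases, was at 1.41 in KO-injury replicate 5, inside the KO-control range of 0.90 to 2.58, whereas WT-injury spanned 4.94 to 6.87. Of 8 genes of lost epithelium, inflammation and division that were picked after their values were seen, KO-injury replicate 5 lay inside the KO-control range for 5 of the 7 it measured and inside the WT-injury range for 0. The epithelial ones of these 8 came from lists that moved only in part. Injury in WT called 2 of 5 secretory and 1 of 5 ciliated markers, all lower, against 5.26% of all probes. The ones called were those picked. KO-injury replicates 2 and 4 lay inside the WT-injury range for 6 of 8, replicate 1 for 1 and replicate 3 for 0. For these genes KO-injury replicate 5 thus lay with KO-control more often than with WT-injury. Genes picked from these same values cannot check its label. The injury differences in KO are given below with all arrays, without replicate 5, and without replicates 1 and 5 together, the 2 arrays to which limma gave the lowest weights. Over all probes, leaving out replicate 5 raised the number called for injury in KO from 98 to 1075, and leaving out both raised it to 1967.

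**Figure D1:**
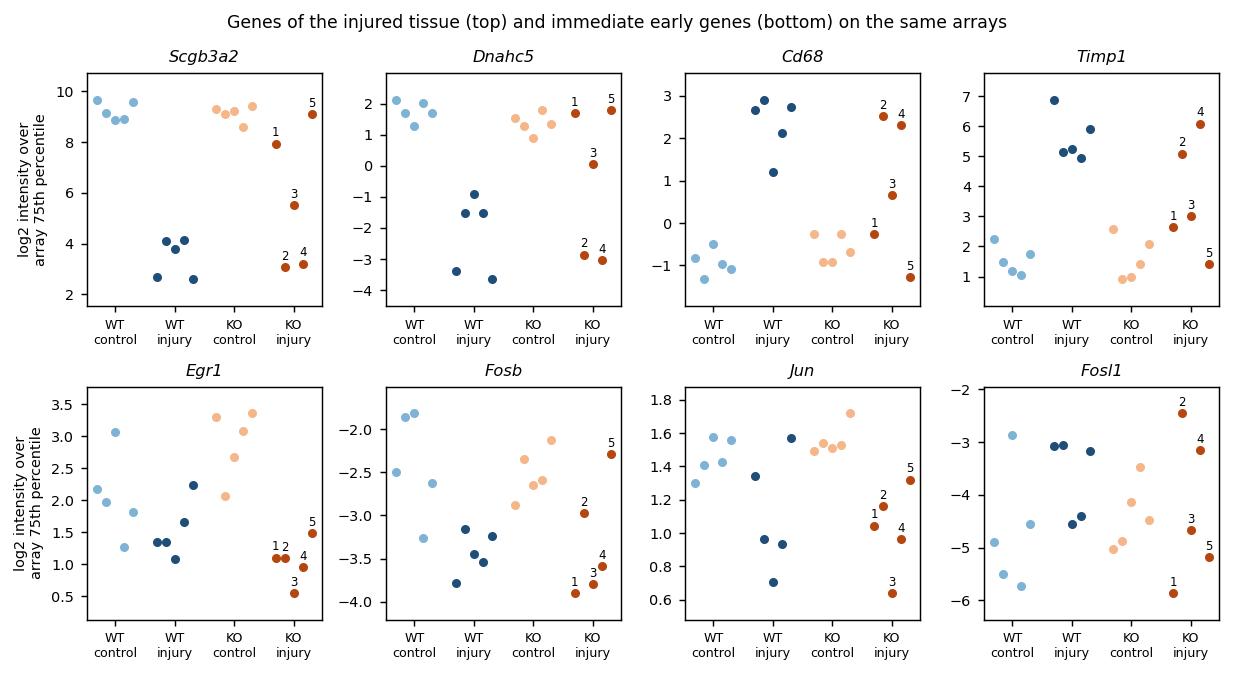
Levels on each of the 20 arrays (log2 intensity over the array's 75th percentile, y axis) by group (x axis) for 4 genes of the injured tissue in the top row and 4 immediate early genes in the bottom row, 1 point per array, with KO-injury points marked by replicate number. KO-injury replicates 1 and 5 lie with or near the controls for Scgb3a2, Dnahc5, Cd68 and Timp1, while all 5 KO-injury arrays lie below all 5 KO-control arrays for Egr1 and Jun.

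Among the 10 genes, Egr1 was the one that passed the test, and it did so in the knockouts. Egr1 encodes a zinc finger factor that couples growth factor and stress signals to wound repair genes. Its level in KO-control replicates 1 to 5 was 3.30, 2.06, 2.67, 3.08 and 3.35, and in KO-injury replicates 1 to 5 it was 1.10, 1.10, 0.55, 0.96 and 1.48. Every injured KO array was therefore below every uninjured KO array. In WT-control it was 2.18, 1.97, 3.06, 1.27 and 1.81, and in WT-injury 1.35, 1.35, 1.08, 1.65 and 2.24. The wild-type groups overlapped, and the uninjured knockouts were the high group of the 4.

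Egr1 was lower in KO-injury than in KO-control, with a log2 difference of -1.85 ± 0.30 (SE, n = 5 and 5; 95% interval -2.49 to -1.22). This was 3.62-fold, with an adjusted p of 0.00524 in limma. Egr1 was 1 of 12 member probes called at an adjusted p under 0.01, where 0.376% of all probes tested were called for injury in KO. Since the KO groups did not overlap, its sign was bound to be the same on every slide and scan day, which adds no support. Each of the 5 slides carried 1 array of every group, and the difference in KO ranged over them from -2.20 to -0.97. Within the first scan day (3 arrays a group) it was -1.74 and within the second (2 arrays a group) -2.03. With slide as a block the adjusted p was 0.00735, and with scan day as a block it was 0.00239.

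The Egr1 call in KO did not need KO-injury replicates 1 and 5. Without KO-injury replicate 5 the difference was -1.97 with an adjusted p of 0.000758, and without replicates 1 and 5 it was -2.02 with an adjusted p of 0.00104. Without both, 1 of the 12 member probes was still called, this time against 7.55% of all probes. The size was steadier than the call. When single arrays were left out the adjusted p ran from 0.000758 to 0.0205, and it was over 0.01 without KO-control replicate 1, 3, 4 or 5 or KO-injury replicate 2, 3 or 4 (differences -1.91 to -1.73). A fit on the 2 KO groups alone gave 0.0345. The adjusted one-way test of the methods gave 0.109, the highest of the alternatives.

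In wild-type mice the Egr1 difference after injury was -0.52 ± 0.30 (95% interval -1.15 to 0.12; adjusted p 0.293). The difference between the 2 responses was -1.33 ± 0.43 (95% interval -2.23 to -0.44), and its adjusted p was 0.391, so a different response in the 2 genotypes was not called. It was -1.45 (adjusted p 0.407) without KO-injury replicate 5 and -1.50 (adjusted p 0.416) without replicates 1 and 5. Before injury Egr1 was 0.84 ± 0.30 higher in KO-control than in WT-control (95% interval 0.20 to 1.47; adjusted p 0.533). After injury it was lower in KO-injury than in WT-injury on all 5 slides, by -0.76 to -0.25, with an adjusted p of 0.527. Without KO-injury replicate 5 that adjusted p was 0.529, and without replicates 1 and 5 it was 0.558.

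Egr2, a relative of Egr1 that also acts in myelinating cells and macrophages, followed another course. WT-control replicates 1 to 5 were at -0.56, -0.62, -0.67, -0.72 and -1.06. KO-control was at -0.19, -0.49, -0.34, -0.24 and -0.17, and WT-injury at 0.09, -0.30, -0.48, -0.21 and 1.58. All WT-control arrays lay below all KO-control and all WT-injury arrays. KO-injury was spread the widest, at -0.85, 0.64, -1.12, 0.88 and -1.25, an SD of 1.02 against 0.13 in KO-control. The 2 high KO-injury arrays were replicates 2 and 4, those that also resembled WT-injury by the genes of the injured tissue.

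None of the Egr2 differences was called. Injury in WT gave 0.86 ± 0.39 (95% interval 0.04 to 1.69; adjusted p 0.169), and 0.50 without WT-injury replicate 5. Injury in KO gave -0.05 ± 0.39 (95% interval -0.88 to 0.77; adjusted p 0.958), which turned to 0.17 without KO-injury replicate 5 and to 0.42 without replicates 1 and 5. KO-control was 0.44 ± 0.39 above WT-control, with an adjusted p of 1.

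**Figure D2:**
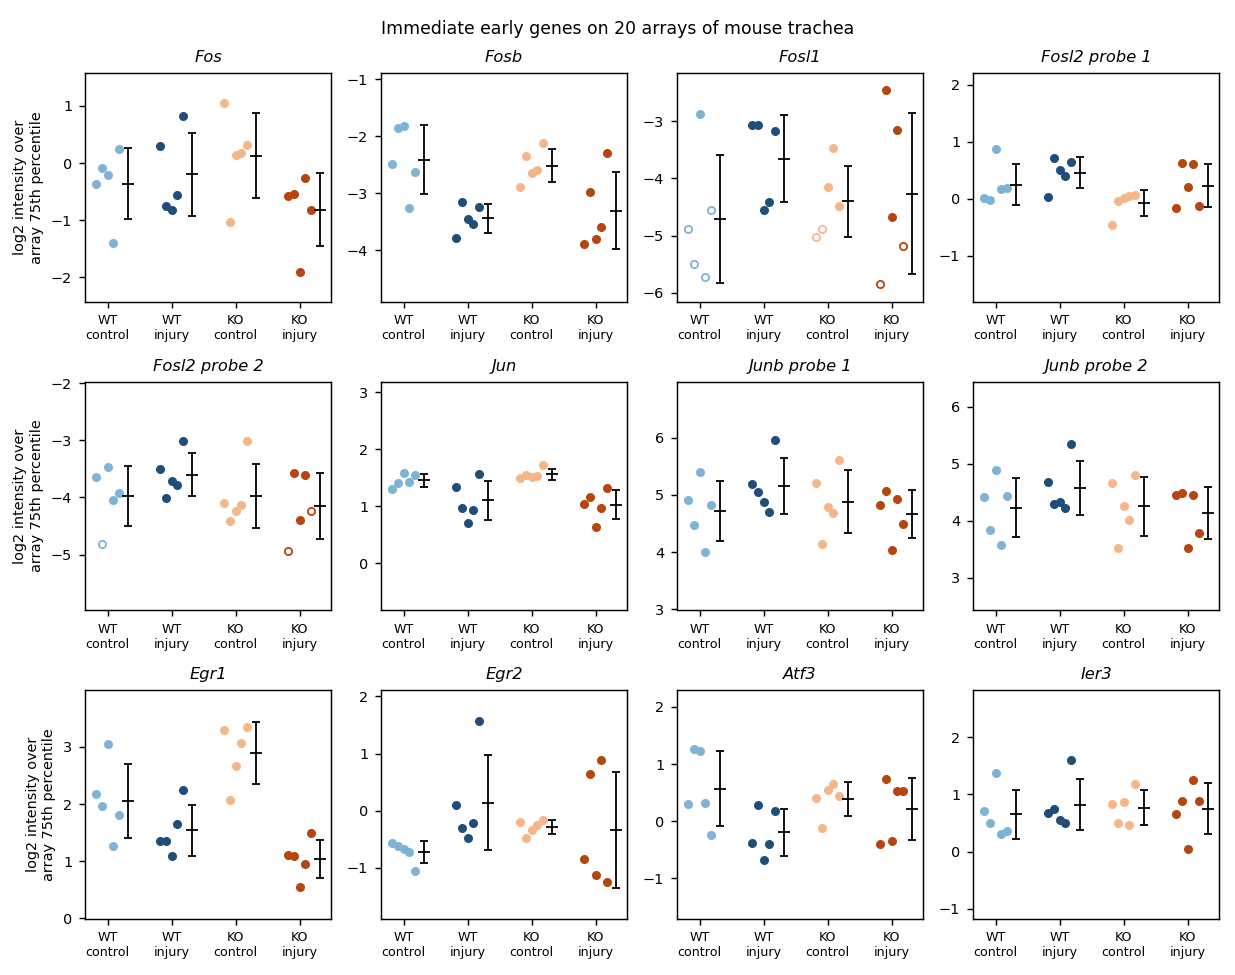
Level of each of the 12 probes on the 20 arrays (y axis, log2 intensity over the array's 75th percentile; each panel spans 4 log2 units or more) by group (x axis), with filled points well above background, open points not, and a bar for the mean ± SD of 5 arrays. The groups overlap for most probes, while KO-injury lies below KO-control for Egr1 and Jun, and WT-control lies below KO-control and WT-injury for Egr2.

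Fos, the founding member of the family and the AP-1 partner that is usually induced first, varied more within groups than most probes: its SD within groups, 0.69, was larger than that of 88.4% of the tested probes, whose median was 0.37. WT-control was at -0.37, -0.08, -0.21, -1.40 and 0.25, and WT-injury at 0.29, -0.75, -0.82, -0.56 and 0.83. KO-control was at 1.05, -1.03, 0.15, 0.17 and 0.31, and KO-injury at -0.57, -0.55, -1.91, -0.25 and -0.81. All groups overlapped. The 10 spots of the Fos probe on an array differed by a median SD of 0.07, so the scatter lay between arrays and not between spots.

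For Fos, injury in WT gave 0.17 ± 0.40 (95% interval -0.68 to 1.01; adjusted p 0.838) and injury in KO gave -0.95 ± 0.40 (95% interval -1.80 to -0.10; adjusted p 0.204). The latter was -0.95 without KO-injury replicate 5 (adjusted p 0.168) and -1.03 without replicates 1 and 5 (adjusted p 0.153). The difference between the responses was -1.12 ± 0.57, with an adjusted p of 0.509, and it was -1.12 and -1.20 in these fits.

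Fosb, a Fos relative that is strongly inducible by growth factors and neural activity, had its lower levels on injured arrays of both genotypes. WT-control was at -2.49, -1.86, -1.82, -3.27 and -2.63, against -3.79, -3.15, -3.45, -3.54 and -3.24 in WT-injury. KO-control was at -2.88, -2.34, -2.64, -2.59 and -2.13, against -3.90, -2.97, -3.80, -3.59 and -2.29 in KO-injury. WT-control replicate 4 reached into the injured range, and KO-injury replicate 5 into the uninjured one. On all 5 slides the injured array was lower than the uninjured array of its genotype, in WT and in KO.

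The Fosb difference was -1.02 ± 0.30 in WT (95% interval -1.64 to -0.40; adjusted p 0.0276) and -0.79 ± 0.30 in KO (95% interval -1.41 to -0.17; adjusted p 0.147). Neither passed 0.01. Without KO-injury replicate 5 the adjusted p in WT was 0.00986, since all 4 groups share 1 estimate of spread, and the KO difference was -1.05 with an adjusted p of 0.0168. Without replicates 1 and 5 these adjusted p were 0.00853 and 0.0333. Fosb was then 1 of 12 member probes called in WT. All probes called there were 7.07% without replicate 5 and 9.12% without both. The 2 responses differed by 0.23 ± 0.42 (95% interval -0.64 to 1.11; adjusted p 0.868), by -0.024 without replicate 5 and by 0.087 without replicates 1 and 5.

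Fosl1, the Fra-1 subunit that is known for its role at the edge of migrating epithelium, was near the detection limit. Its probe was well above background on 1 of 5 WT-control arrays, 3 of 5 KO-control, 5 of 5 WT-injury and 3 of 5 KO-injury arrays. WT-control was at -4.88, -5.50, -2.87, -5.72 and -4.56, and WT-injury at -3.07, -3.06, -4.55, -4.40 and -3.17. KO-control was at -5.02, -4.88, -4.14, -3.47 and -4.48, and KO-injury at -5.85, -2.46, -4.68, -3.15 and -5.17. The high KO-injury arrays were again replicates 2 and 4, and a single WT-control array, replicate 3, was as high as the injured ones.

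With these dim values, Fosl1 differed by 1.06 ± 0.60 for injury in WT (95% interval -0.20 to 2.31; adjusted p 0.278) and by 0.14 ± 0.60 in KO (95% interval -1.12 to 1.39; adjusted p 0.928). Without KO-injury replicate 5 the KO difference was 0.36, and without replicates 1 and 5 it was 0.97 with an adjusted p of 0.282. With normexp background correction the WT difference was 0.30, with an adjusted p of 0.526. KO-injury minus WT-injury was -0.61 with all arrays, -0.39 without replicate 5 and 0.22 without replicates 1 and 5 (adjusted p 0.915). Its SD within groups, 1.03, exceeded that of 96.8% of the tested probes.

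Fosl2, the Fra-2 subunit, gave small differences by both of its probes. Probe 1 had group means of 0.24 in WT-control, 0.46 in WT-injury, -0.07 in KO-control and 0.23 in KO-injury. Its injury differences were 0.22 ± 0.20 in WT (adjusted p 0.533) and 0.30 ± 0.20 in KO (adjusted p 0.434), and the latter was 0.39 without KO-injury replicate 5 (adjusted p 0.24) and 0.55 without replicates 1 and 5 (adjusted p 0.0772). Probe 2 was well above background on 17 of 20 arrays. It gave 0.38 ± 0.31 in WT and -0.17 ± 0.31 in KO, the KO value being -0.15 without KO-injury replicate 5 and 0.12 without replicates 1 and 5. The 2 probes thus had the same sign in WT and opposite signs in KO when all arrays were used.

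Jun, the main partner of Fos in AP-1, was the tightest of the set: its SD within groups, 0.23, was larger than that of 14.0% of the tested probes. WT-control was at 1.30, 1.41, 1.57, 1.43 and 1.56, and WT-injury at 1.34, 0.96, 0.71, 0.93 and 1.57. KO-control was at 1.49, 1.54, 1.51, 1.53 and 1.72, and KO-injury at 1.04, 1.16, 0.64, 0.97 and 1.32. All KO-injury arrays were below all KO-control arrays, whereas WT-injury replicates 1 and 5 stayed inside the WT-control range.

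Jun differed by -0.53 ± 0.16 for injury in KO (95% interval -0.86 to -0.20; adjusted p 0.067) and by -0.35 ± 0.16 in WT (95% interval -0.68 to -0.02; adjusted p 0.156). Neither was called. The KO difference was -0.61 without KO-injury replicate 5 (adjusted p 0.0206) and -0.64 without replicates 1 and 5 (adjusted p 0.0195). In WT the difference was -0.60 within the first scan day and 0.03 within the second, which held WT-injury replicates 1 and 5. In KO it was -0.60 and -0.42. Egr1 and Jun were the 2 member probes of 12 whose KO groups did not overlap, against 3.45% of all probes tested.

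Junb, a Jun relative that restrains Jun activity in several cell types, was measured by overlapping probes that tracked each other closely. Probe 1 was at 4.91, 4.47, 5.40, 4.00 and 4.83 in WT-control and at 5.19, 5.05, 4.87, 4.69 and 5.97 in WT-injury. It was at 5.21, 4.14, 4.79, 4.68 and 5.60 in KO-control and at 4.82, 5.06, 4.03, 4.93 and 4.48 in KO-injury. The groups overlapped. Injury differences of probe 1 were 0.43 ± 0.30 in WT (95% interval -0.19 to 1.06; adjusted p 0.384) and -0.22 ± 0.30 in KO (95% interval -0.85 to 0.41; adjusted p 0.736). The KO difference of probe 1 was -0.17 without KO-injury replicate 5 and -0.21 without replicates 1 and 5. Probe 2 gave 0.34 ± 0.29 in WT and -0.12 ± 0.29 in KO, the latter -0.030 and -0.10 without these arrays.

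Atf3, a repressor of inflammatory genes downstream of Toll-like receptors, had its lowest group mean in injured wild-type mice. WT-control was at 0.29, 1.26, 1.23, 0.31 and -0.24, and WT-injury at -0.38, 0.29, -0.68, -0.40 and 0.18. KO-control was at 0.40, -0.11, 0.54, 0.66 and 0.44, and KO-injury at -0.41, 0.74, -0.35, 0.53 and 0.54. The groups overlapped in both genotypes. Injury in WT gave -0.77 ± 0.30 (95% interval -1.39 to -0.15; adjusted p 0.0994) and in KO -0.18 ± 0.30 (95% interval -0.80 to 0.45; adjusted p 0.795). The KO difference was -0.26 without KO-injury replicate 5 and -0.08 without replicates 1 and 5.

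Ier3 had the smallest injury differences of the 10 genes in KO, and all its groups overlapped. Its levels ran from 0.31 to 1.38 in WT-control, from 0.50 to 1.60 in WT-injury, from 0.46 to 1.19 in KO-control and from 0.05 to 1.26 in KO-injury. Injury in WT gave 0.17 ± 0.25 (95% interval -0.36 to 0.70; adjusted p 0.72) and in KO -0.02 ± 0.25 (95% interval -0.55 to 0.51; adjusted p 0.976). The KO difference was -0.06 without KO-injury replicate 5 and -0.04 without replicates 1 and 5.

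**Figure D3:**
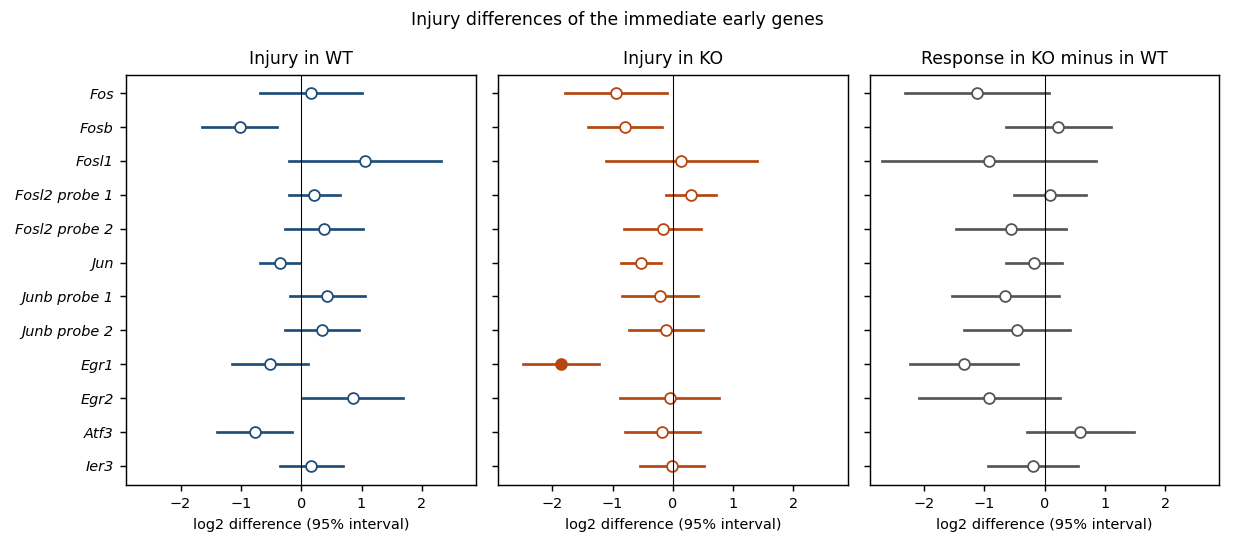
Log2 differences with 95% intervals (x axis) of the 12 probes (y axis) for injury minus control in WT, injury minus control in KO, and the KO response minus the WT response, from the fit of all 20 arrays. The filled point, Egr1 in KO at -1.85, passed an adjusted p under 0.01, and open points did not.

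Counted over the 12 probes, 0 were called for injury in WT, where 5.26% of all probes were called. At an unadjusted p under 0.05 in limma there were 4 of 12 (Fosb, Jun, Egr2 and Atf3), against 26.4% of all probes, and 1 of 12 had groups that did not overlap (Egr2), against 12.6%. In KO, 4 of 12 had an unadjusted p under 0.05 (Fos, Fosb, Jun and Egr1), against 19.5%, and there were 4 without KO-injury replicate 5, against 27.6%, and 5 without replicates 1 and 5, against 32.1%. Uninjured mice of the 2 genotypes gave 0 calls among the members, against 0.384% of all probes, with 1 of 12 under an unadjusted 0.05 (Egr1), against 5.59%, and 1 with groups that did not overlap (Egr2), against 2.51%. Injured mice of the 2 genotypes gave 0 calls, against 0.38%, with 0 of 12 under an unadjusted 0.05, against 12.5%, and 0 whose groups did not overlap, against 1.96%. The difference of the responses gave 0 calls, against 0% of all probes, and 1 of 12 under an unadjusted 0.05 (Egr1), against 10.4%.

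By sign, 8 of 12 member probes were higher after injury in WT, with a median difference of 0.19, and 10 of 12 were lower in KO, with a median of -0.17. Over all tested probes the medians were 9.91e-05 and -0.07, and 50% and 57.7% were lower after injury. Without KO-injury replicate 5, 9 of 12 members were lower in KO (median -0.16, against 57% of all probes), and without replicates 1 and 5, 8 of 12 (median -0.09, against 55.1%). The KO-injury arrays were lower than the WT-injury arrays for 10 of 12 probes, with a median of -0.46, against 54.7% of all probes and a median of -0.03. Without replicate 5 that was 11 of 12, with a median of -0.30, against 56.3% of all probes. Without replicates 1 and 5 it was 9 of 12, with a median of -0.13, against 56.1% of all probes. Fosl1 and Fosl2 probe 1 then turned to 0.22 and 0.023, Fosb turned to -0.018 and Egr2 was at -0.0014. These comparisons share arrays, and the probes of a gene are not separate genes.

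The members moved together from mouse to mouse. After the group means were removed, 65 of the 66 pairs of member probes correlated above 0 over the 20 arrays, with a median Pearson r of 0.50 and 33 pairs above 0.5. Apart from the 2 Junb probes (r = 0.98), the closest pairs were Junb probe 1 with Ier3 (r = 0.85), Fos with Junb probe 2 (r = 0.82) and Junb probe 1 with Egr1 (r = 0.80). With the slide means also removed, the median r was 0.61. The points of these correlations share an array, its labelling and its scaling, and the KO-injury arrays add their own spread. The correlations are therefore given without a test. Pairs of other probes were not measured in the same way, so whether moving together is particular to the members was not tested.

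Single arrays were high or low for the whole set. WT-control replicate 3, WT-injury replicate 5 and KO-injury replicate 2 lay above their group mean for 10 of 10 genes, by an average of 0.65, 0.65 and 0.50. KO-injury replicate 3 lay below for 10 of 10, by an average of -0.56, and WT-control replicate 4 was above for 1 of 10, with an average of -0.51. The high arrays stood on different slides. The same count was not made for other genes, so it is not known to be particular to this set. In KO-injury the average was 0.50 and 0.40 in replicates 2 and 4 and -0.33, -0.56 and -0.01 in replicates 1, 3 and 5.

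**Figure D4:**
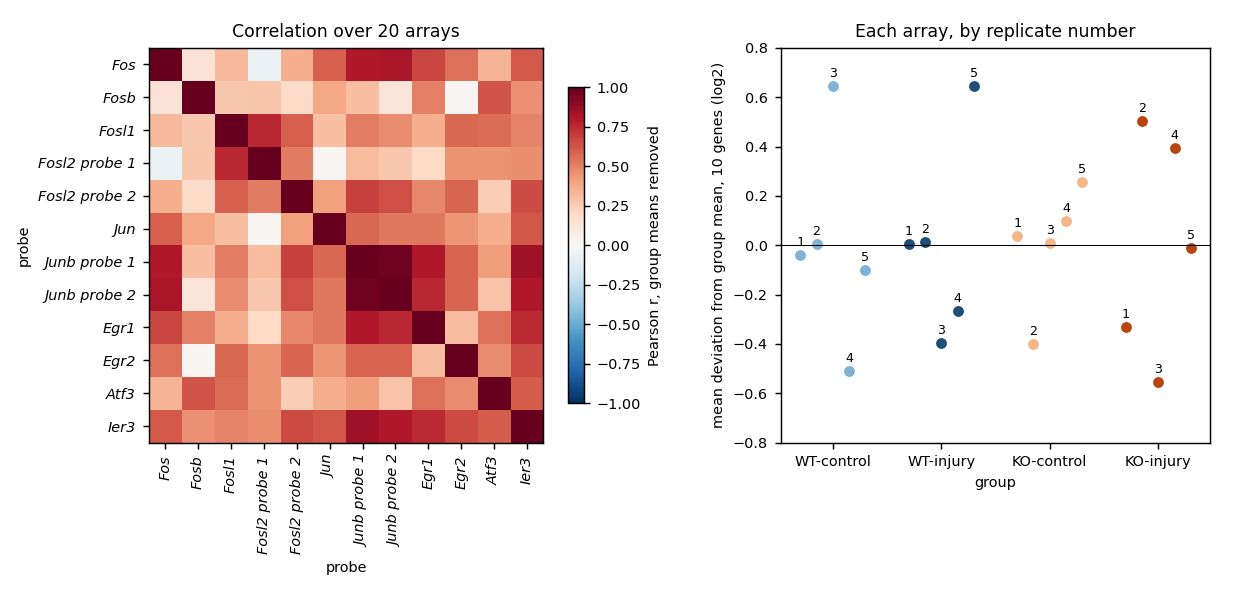
Left, Pearson correlation (colour) between the 12 member probes over the 20 arrays after the group means were removed. Right, mean deviation of the 10 genes from their group mean (y axis, log2) for each array, by group (x axis) and labelled with the replicate number. The pair of Junb probes and the pairs of Junb with Ier3, Fos and Egr1 have the strongest colours, and WT-control replicate 3 and WT-injury replicate 5 are the highest arrays.

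By the same measure, the genes outside the set that tracked Fos best over the 20 arrays were Socs1 (r = 0.88), Dusp1 (r = 0.84) and Trim30 (r = 0.78). For Egr1 they were Gadd45b (r = 0.83), Dusp1 (r = 0.82) and Plk3 (r = 0.82). Atf3 was tracked by Errfi1 (r = 0.84), Sertad1 (r = 0.80) and Slc25a25 (r = 0.78), and the dim Fosl1 probe by Rap2b (r = 0.94), Tnf (r = 0.89) and Ass1 (r = 0.88). These are the top 3 of all named genes tested.

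Junb correlated best with Ier3, Fos and Egr1 from array to array, and Egr1 had no entry. For the other genes the 250 bases before the annotated start are shown on the gene's strand, from RefSeq on GRCm38.p6. The choice used the correlations with only the group means removed. With the slide means also removed, Fosl2 probe 1 was as close to Junb probe 1 (r = 0.85) as Ier3 was (r = 0.86). Capitals mark matches, on either strand, to the cAMP response element (TGACGTCA), the AP-1 site (TGANTCA), the CArG box of serum response factor, the Egr site (GCGNGGGCG), the NF-κB site or TATAAA. Fos lay at chr12:85473640-85473889 on the plus strand, Junb at chr8:84978749-84978998 on the minus strand and Ier3 at chr17:35821463-35821712 on the plus strand.
Fos: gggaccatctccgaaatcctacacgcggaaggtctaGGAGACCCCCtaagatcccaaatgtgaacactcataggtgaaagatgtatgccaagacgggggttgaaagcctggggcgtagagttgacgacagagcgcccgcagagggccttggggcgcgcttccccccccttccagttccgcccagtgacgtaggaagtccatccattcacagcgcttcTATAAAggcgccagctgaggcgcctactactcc
Junb: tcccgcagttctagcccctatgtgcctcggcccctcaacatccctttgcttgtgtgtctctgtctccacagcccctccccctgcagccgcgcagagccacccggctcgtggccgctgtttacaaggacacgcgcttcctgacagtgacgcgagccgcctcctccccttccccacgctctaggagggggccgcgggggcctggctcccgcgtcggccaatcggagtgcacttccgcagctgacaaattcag
Ier3: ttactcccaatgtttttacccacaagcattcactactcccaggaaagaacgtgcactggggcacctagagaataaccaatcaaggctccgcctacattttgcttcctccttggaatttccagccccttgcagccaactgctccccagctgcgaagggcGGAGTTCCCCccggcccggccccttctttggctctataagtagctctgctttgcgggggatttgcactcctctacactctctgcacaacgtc

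In these windows Fos held an NF-κB match that ran from base -214 to -205 and a TATAAA that ran from -33 to -28, Ier3 held an NF-κB match from -92 to -83, and Junb held none of the 6 motifs. Of the 10 genes, 8 had an entry, and Egr2 had several starts. Fosb held an NF-κB match from -188 to -179 and an Egr match from -50 to -42, Fosl2 held overlapping NF-κB matches between -182 and -172 and an Egr match from -79 to -71, and of the 5 Egr2 windows 3 shared a CArG box and 1 held another. Atf3 and Jun held none. Over all 32851 windows of this length, 3.90% held the NF-κB match, 4.70% the Egr match, 1.47% the CArG box, 12.4% TATAAA, 6.75% the AP-1 site and 1.55% the cAMP response element. No match says only that these letters are not in this window.

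The wider pathway was read from lists of known genes. Of 24 further immediate early genes, 22 were tested and 0 were called for injury in either genotype, against 5.26% of all probes in WT and 0.376% in KO. Their median difference was -0.27 in WT and -0.36 in KO. Among regulators upstream of the set, 2 of 10 tested were called, both in WT, where 5.26% of all probes were called: Elk3, a partner of serum response factor, rose by 0.98 (adjusted p 0.00514) and Mkl1, an actin-regulated coactivator of the same factor, rose by 0.72 (adjusted p 0.00235). Among 11 other zipper proteins tested that can pair with or compete with AP-1, 0 were called in either genotype, with a lowest adjusted p of 0.0204 in WT and 0.041 in KO. Of 6 feedback inhibitors tested, such as the MAP kinase phosphatases and the Nab corepressors of Egr1, 0 were called in either genotype. For lists of this size, counts of 0 are close to the shares of all probes, 5.26% in WT and 0.376% in KO. They are not read as a lack of response. Macrophage markers moved with the WT calls of Elk3 and Mkl1: 5 of 6 were called higher in WT and 0 of 6 in KO, against 5.26% and 0.376% of all probes. The mean level of the macrophage list ran from 0.99 to 1.38 in WT-control and from 2.13 to 3.31 in WT-injury. In KO, 0 of 6 macrophage markers were called without KO-injury replicate 5 and 2 of 6 without replicates 1 and 5, against 4.12% and 7.55% of all probes. Their part in these differences was not tested. Without KO-injury replicates 1 and 5, 3 more genes of these lists were called, against 9.12% of all probes in WT and 7.55% in KO. They were the orphan receptor Nr4a1 at -1.27 and the phosphatase Dusp4 at -0.87 in WT, and the stress factor Atf5 at -0.90 in KO. Without replicate 5 alone, 1 of the 22 further immediate early genes was already called in WT, against 7.07% of all probes. In that fit 1 of the 11 zipper proteins was called in KO, against 4.12%.

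Genes that AP-1 is known to drive in wounds were also listed. Of 13 tested, 5 rose in WT, against 5.26% of all probes called: Timp1 by 4.08 (adjusted p 0.000792), the matrix metalloproteinases Mmp3 by 2.68 (adjusted p 0.00165) and Mmp9 by 2.22 (adjusted p 0.00419), the chromatin protein Hmga1 by 1.60 (adjusted p 0.00127) and the plasminogen activator Plau by 1.51 (adjusted p 0.00515). In KO 0 of 13 were called when all arrays were used, against 0.376% of all probes, and a count of 0 is close to that share. The median difference was 0.39 in KO against 1.42 in WT. Without KO-injury replicate 5 the count in KO was 2 of 13, against 4.12% of all probes, with a median of 0.77. Without replicates 1 and 5, 2 of 13 were called in KO, against 7.55%: Timp1 at 3.14 (adjusted p 0.00144) and Hmga1 at 1.28 (adjusted p 0.00316). Plaur, the plasminogen activator receptor, was then also called in WT, at 1.68 (adjusted p 0.00641). That made 6 of 13 in WT, against 9.12% of all probes, and the median in KO was 1.09. Markers of other cells moved with these genes in WT: beside the macrophage list, 1 of 4 neutrophil markers tested, of 7 listed, was called (Csf3r, the receptor of the granulocyte growth factor, at 4.05 with an adjusted p of 0.0038), and the mean of that list ran from -2.67 to 0.26 in WT-control and from 0.28 to 3.66 in WT-injury. Of 5 proliferation markers, 3 were called (Ccnb1, Cdc2a and Birc5, at 2.54 to 2.77), and the mean of the list ran from -1.61 to 0.36 in WT-control and from 0.83 to 1.83 in WT-injury. In KO with all arrays, 0 of these 5 and 0 of the 4 neutrophil markers were called, against 0.376% of all probes. The median differences of these 2 lists were 2.12 and 2.30 in KO, against 2.54 and 3.34 in WT. Without KO-injury replicate 5, 4 of 5 and 1 of 4 were called in KO, against 4.12% of all probes. These marker counts were the same without replicates 1 and 5. Their part in these differences was not tested.

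**Figure D5:**
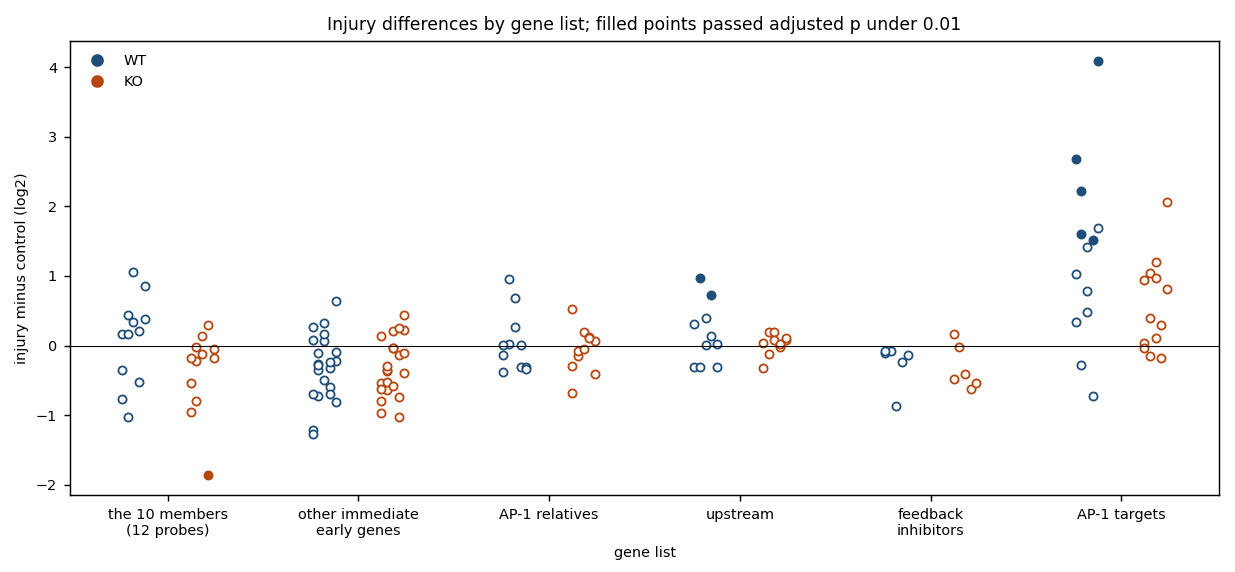
Injury minus control (y axis, log2) for the 12 member probes and for the tested genes of 5 related lists (x axis), 1 point per probe or gene, in WT and in KO with all arrays. Filled points passed an adjusted p under 0.01: Egr1 is the filled member point, in KO, and the filled points of the AP-1 targets, 1.51 to 4.08, are all in WT.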

How the data were processed

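Total RNA of 20 whole tracheas was labelled with Cy3 and hybridised to one-colour Agilent mouse arrays. The authors scanned the slides and extracted spots with Agilent Feature Extraction (9.5.1.1 per the file headers). The intensity used is the deposited, background-subtracted and detrended processed signal. Values in the series table equalled these within rounding (ratio 0.995 to 1.00). Outlier spots were left out, control spots too, spots of a probe were averaged on the log2 scale, and the 75th percentile of each array was subtracted. Probes well above background on 10 of 20 arrays were tested with limma 3.58.1 (R 4.3.3), all groups in 1 fit, with 5 contrasts, Benjamini-Hochberg adjustment over all tested probes per contrast, and a threshold of 0.01. The number of arrays limits the precision. The script was tested on simulated data.

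Each slide held 1 array of every group, and the 5 slides were scanned on 2 days. The members and gene lists were chosen with earlier results of these data known, and 2 genes were taken out of the lists and their counts and are not reported here. Genes outside the 10 were named only if called in a list (up to 6 a contrast), closest in likeness (3 per gene), or said to be chosen later. Alternatives covered background correction, scaling, filters, blocks, weights, the methods' one-way test and single arrays.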

Additional observations from a re-analysis of the deposited data

Results flagged for a closer look

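Within each group of 5 arrays, the highest or lowest level of a member probe was compared with the rest by Dixon's ratio of gap to range. Of 48 sets of 5 values, 6 exceeded the 95% critical value of 0.71, where chance gives about 1 in 20 for separate sets. These sets share arrays, and some share a gene, so the count is not a test of an excess. Egr2 in WT-injury replicate 5 was at 1.58, with the other arrays at -0.48 to 0.09. Ier3 on the same array was at 1.60, with the others at 0.50 to 0.75. Jun in KO-control replicate 5 was at 1.72, with the others at 1.49 to 1.54. Fosl2 stood out 3 times: probe 1 was at 0.86 in WT-control replicate 3 (others -0.02 to 0.18) and at -0.47 in KO-control replicate 1 (others -0.03 to 0.07), and probe 2 was at -3.01 in KO-control replicate 5 (others -4.41 to -4.10). The 2 Fosl2 probes did not stand out on the same array.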

How the results depend on the processing

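The results were recomputed under 13 other ways of processing, with each of the 20 arrays left out, and, chosen after seeing the data, with KO-injury replicates 1 and 5 both left out. Against 1 member called for injury in KO, the fit of the 2 groups alone and the adjusted one-way test of the methods each called 0 and the unadjusted one-way test called 2. The unadjusted one-way test also called 1 member for injury in WT and 1 for genotype without injury, against 0. For that test the share of all probes is not given, so its counts are not read as a result. With both KO-injury replicates left out, injury in WT called 1 member, against 9.12% of all probes. With single arrays left out, the member calls ran from 0 to 1 for injury in KO and from 0 to 1 for injury in WT. In WT, leaving out KO-injury replicate 5 made the change, with 7.07% of all probes called. With the replicate block (slide) the Egr1 difference in KO was -1.85 and the member count 1. Same-numbered arrays shared a slide. After the group means were removed they correlated at 0.25 to 0.48 in all 5 pairs of WT-control and KO-control, while in the other comparisons between groups at least 1 of 5 pairs was below 0.1 (lowest -0.26), and the block changed no member call in any comparison. Over all probes, calls for injury in KO ran from 0 to 1967 against 98, for injury in WT from 665 to 3800 against 1372, for genotype without injury from 46 to 743 against 100, for genotype after injury from 21 to 602 against 99, and for the difference of the responses from 0 to 4 against 0.

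Signs turned only for differences that were not called, most of them small, but Fosl1 for genotype after injury stood at -0.61. Normexp moved Fosl1 for injury in WT from 1.06 to 0.30 and in the difference of the responses from -0.92 to -0.22, and leaving out KO-injury replicates 1 and 5 moved the latter to -0.085. Array weights gave 0.33 for Egr2, 0.12 for Fosl2 probe 2, 0.068 for Ier3 and 0.041 for Junb probe 2 for injury in KO, -0.088 for Fosb in the difference of the responses, 0.12 for Fosb and -0.035 for Fosl2 probe 2 for genotype without injury, and 0.0099 for Fosl1 for genotype after injury. Normexp background correction gave 0.020 for Egr2 in KO, and quantile normalization -0.032 for Junb probe 2 for genotype without injury. Leaving out KO-injury replicates 1 and 5 gave 0.42 for Egr2 and 0.12 for Fosl2 probe 2 for injury in KO and, for genotype after injury, -0.018 for Fosb, 0.22 for Fosl1 and 0.023 for Fosl2 probe 1. With single arrays left out, injury in KO ran from -0.36 to 0.17 for Egr2, from -0.31 to 0.53 for Fosl1, from -0.32 to 0.071 for Fosl2 probe 2, from -0.15 to 0.16 for Ier3 and from -0.30 to 0.038 for Junb probe 2. Injury in WT ran from -0.094 to 0.32 for Fos and from -0.026 to 0.35 for Ier3. Genotype without injury ran from -0.32 to 0.043 for Fosb, from -0.24 to 0.13 for Fosl2 probe 2, from -0.016 to 0.35 for Junb probe 1 and from -0.14 to 0.20 for Junb probe 2. Genotype after injury ran from -0.13 to 0.27 for Fosb, from -0.20 to 0.13 for Ier3 and from -0.17 to 0.040 for Jun. The difference of the responses ran from -0.024 to 0.44 for Fosb, from -0.070 to 0.19 for Fosl2 probe 1 and from -0.37 to 0.0058 for Ier3. The cause was not tested. Dim signal limits Fosl1 and Fosl2 probe 2.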
